A study of Mus musculus with 2 samples.

Results

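The epidermal differentiation complex genes encode the proteins from which keratinocytes build the cornified envelope. The members were every listed symbol that starts with Lce or Sprr, plus Lor, Flg, Flg2, Hrnr, Ivl, Rptn, Tchh, Crnn, Krtdap, Sbsn and Cdsn. This gave 53 of the 27998 rows of the gene list and 47 of its 27933 symbols, with 21 Lce, 15 Sprr, 6 filaggrin-type and 5 other symbols. The symbol Flg stood on 7 rows, which were summed. The row that the GENCODE annotation also calls Flg (ENSMUSG00000102439) lies on chromosome 3 from 93273523 to 93293686. The name of the group fits 44 of the 47 symbols, which lie together on mouse chromosome 3. Krtdap and Sbsn lie on chromosome 7 and Cdsn on chromosome 17, outside the complex.

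The cornified envelope is the insoluble protein shell that replaces the plasma membrane of a keratinocyte as it leaves the granular layer. Transglutaminases crosslink involucrin (Ivl), loricrin (Lor), small proline-rich proteins (Sprr) and late cornified envelope proteins (Lce) on its inner face. Filaggrin (Flg) and its relatives are fused-type S100 proteins stored in the granular layer, where filaggrin bundles keratin filaments before it is broken down. The complex is known for genetic links to atopic dermatitis and psoriasis, and transcription factors of the AP-1 family are known regulators of several of its genes.

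Dorsal skin of wild-type C57BL/6 mice, female and 2 months old, was taken from an untreated control and after topical imiquimod (IMQ) on each of 5 days. Imiquimod is a Toll-like receptor agonist that causes a psoriasis-like dermatitis. Each condition was a single library of digested, dead-cell-depleted skin, and the number of animals behind each is not stated in the labels. With 1 library per condition no test is possible, and each difference below is one between these libraries. Levels are in CPM, the UMIs of a gene scaled to 1e6 UMIs of the layer and library. Ranges in parentheses are exact 95% intervals of the counting error, with UMIs treated as independent. They leave out the spread between cells and the spread between animals.

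The control library held 10857 barcodes with 123088680 UMIs and the IMQ library 9414 barcodes with 144054978 UMIs, and the libraries shared 23 barcodes. After filtering, 1615 control and 2136 IMQ cells were keratinocyte-like. Layers were named from markers that include no member, and members were left out of the clustering. Basal-like cells numbered 424 and 263, spinous-like cells 150 and 407, granular-like cells 208 and 159, and upper follicle-like cells 253 and 157 in the control and IMQ library. Follicle stem/outer root sheath-like cells numbered 60 and 327, and sebaceous-like cells 27 and 52. A further 493 control and 771 IMQ keratinocyte-like cells stayed unnamed. Granular-like cells had a median of 36225.5 UMIs in the control and 35848 in the IMQ library.

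The layers of the IMQ library kept basal transcripts. The 12 basal markers together stood at 210 CPM in granular-like control cells and 5115 CPM in granular-like IMQ cells. In spinous-like cells they stood at 434 and 16168 CPM. The 17 granular markers had similar sums, 12677 and 12105 CPM in granular-like cells, and all 17 were detected in both libraries. Single markers within that sum differed, with Casp14 and Tgm3 higher and Aloxe3 lower in the IMQ library, as given below. The 8 upper follicle markers stood at 4863 and 22440 CPM in granular-like cells. They ranged between cells from 21.5 to 79262 CPM in the control and from 0 to 97291 CPM in the IMQ library. The part of these differences in the member values was not tested.

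The upstream sequences of 6 members are shown because they belong to neighbours that differed between the libraries in opposite directions or in size. Each line gives the 150 bases before the RefSeq start (GRCm38.p6), read 5′ to 3′ on the strand of the gene, with matches to the AP-1 motif TGANTCA and to the TATA box TATAAA in capitals.
Lor, chr3:92083143-92083292, minus strand: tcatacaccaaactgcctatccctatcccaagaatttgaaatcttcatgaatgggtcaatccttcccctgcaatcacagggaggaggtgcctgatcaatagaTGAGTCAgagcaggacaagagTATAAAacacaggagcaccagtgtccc
Sprr1a, chr3:92485882-92486031, minus strand: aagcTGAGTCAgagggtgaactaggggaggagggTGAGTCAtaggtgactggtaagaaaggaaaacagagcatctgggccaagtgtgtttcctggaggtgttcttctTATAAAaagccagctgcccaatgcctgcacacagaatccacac
Sprr1b, chr3:92438780-92438929, minus strand: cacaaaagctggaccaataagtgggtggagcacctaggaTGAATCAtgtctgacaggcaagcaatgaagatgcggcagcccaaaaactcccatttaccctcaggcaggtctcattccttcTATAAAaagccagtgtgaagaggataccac
Lce3f, chr3:92992067-92992216, plus strand: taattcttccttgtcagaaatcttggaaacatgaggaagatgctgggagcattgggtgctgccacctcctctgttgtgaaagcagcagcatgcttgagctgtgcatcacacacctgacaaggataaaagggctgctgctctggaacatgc
Flg2, chr3:93197123-93197272, plus strand: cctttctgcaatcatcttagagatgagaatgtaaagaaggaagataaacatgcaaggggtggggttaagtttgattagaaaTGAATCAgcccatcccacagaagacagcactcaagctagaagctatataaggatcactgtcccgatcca
Flg, chr3:93273396-93273545, plus strand: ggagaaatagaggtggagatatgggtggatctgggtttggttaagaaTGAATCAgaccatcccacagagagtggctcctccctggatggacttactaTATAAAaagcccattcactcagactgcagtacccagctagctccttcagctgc
An AP-1 match stands 48 bases before the start of Lor and 111 bases before that of Sprr1b, and Sprr1a holds a pair, 146 and 116 bases before its start. Flg2 and Flg each hold TGAATCA, 69 and 103 bases before the start. The window of Lce3f holds neither motif.

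A search of the 250 bases before the start, on both strands, found TGANTCA in 17 of the 45 members that matched RefSeq, 37.8%, against 6.87% of 27025 promoters. The match was present for 9 of 14 Sprr genes, for 4 of 6 filaggrin-type genes and for Ivl, Krtdap, Lor and Sbsn, and it was found for 0 of 20 Lce genes. TATAAA was found for 21 of the 45 members, 46.7%, against 12.97% of all promoters. These are matches of letters and not measured binding sites.

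In both libraries the granular-like layer held most of the UMIs of the late envelope genes. It held 99.1% of keratinocyte-like Lor UMIs in the control and 62.7% in the IMQ library, where 33.0% lay in unnamed keratinocyte-like cells. Its share of Flg was 98.8% and 87.1%, with 6.75% of Flg in spinous-like IMQ cells against 0.17% in spinous-like control cells. Krtdap, which encodes keratinocyte differentiation-associated protein, and Sbsn, which encodes the secreted protein suprabasin, were spread over more layers. Spinous-like cells held 19.0% of Krtdap in the control and 38.5% in the IMQ library.

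**Figure D1:**
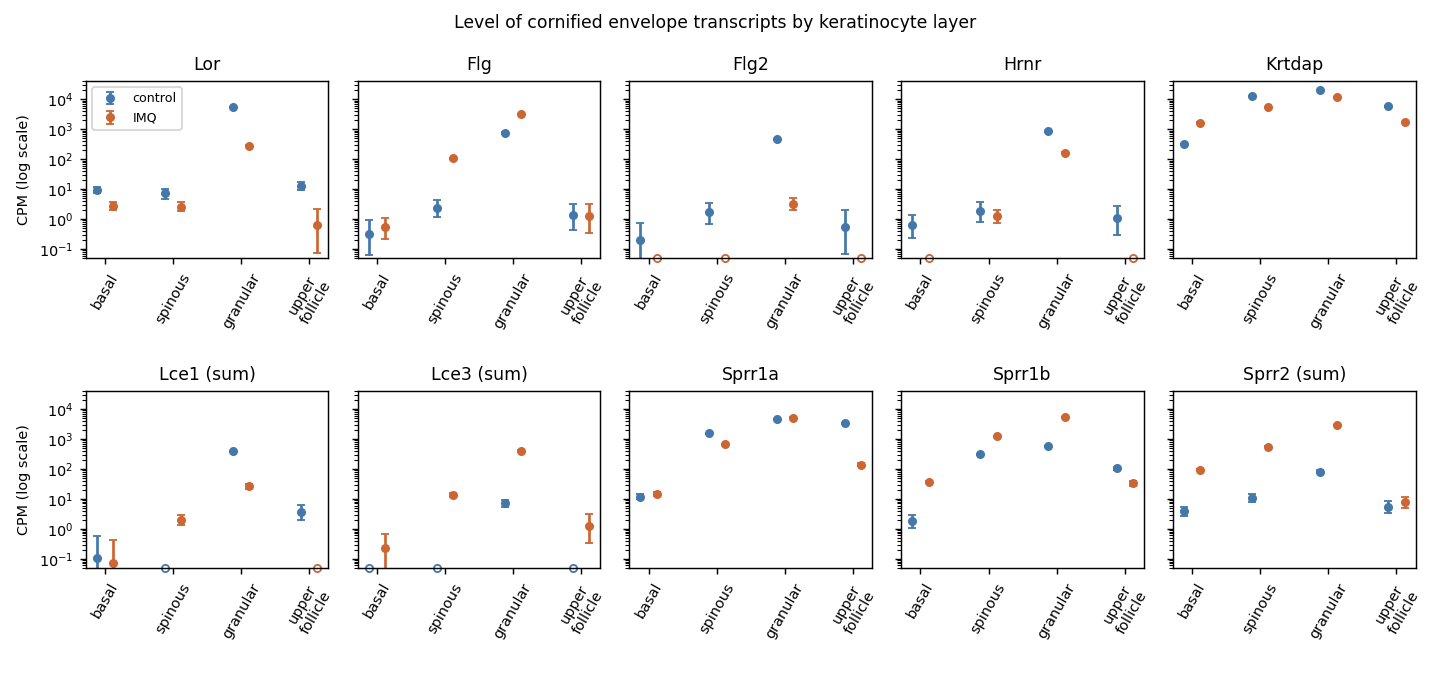
Level in CPM (log axis) of 7 members and of the summed Lce1, Lce3 and Sprr2 genes in 4 keratinocyte layers of the control (blue) and IMQ (orange) library; bars are exact 95% counting intervals and open circles on the axis are counts of 0. Lor, Flg2 and Hrnr are lower and Flg, Lce3, Sprr1b and Sprr2 higher in granular-like IMQ cells, while Sprr1a is at nearly the same level.

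In granular-like cells 33 of the 47 members were measured, meaning that the libraries held 20 or more of their UMIs in that layer, and they differed in both directions. A member was called when the ratio was 2-fold or more and its interval excluded equality. 18 members were called higher in the IMQ library, where 6.81% of 9765 genes were, and 11 were called lower, where 19.4% of genes were. The median log2 ratio of the 33 members was 2.10 and that of all genes measured was -0.36. The median of all genes moved by 0.36 under size factors, so values near equality are best read against -0.36.

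Lor, whose product is the most abundant protein of the envelope, was lower in granular-like IMQ cells. It stood at 5595 CPM (5542 to 5649) in control granular-like cells, and at 280 CPM (266 to 294) in IMQ ones. The log2 ratio was -4.32, and by its interval the control level was 19.0-fold to 21.0-fold higher. After each cell was thinned to 2000 UMIs, 37.0% of control and 9.55% of IMQ granular-like cells had a Lor UMI, and without thinning 64.9% and 20.8%. In fibroblast-like cells, which should lack the gene and had a median of 9607.5 and 13532 UMIs, the thinned shares were 1.14% and 0.07%. A single IMQ cell held 49.8% of the IMQ UMIs of Lor, and the log2 ratio was -5.08 once the highest cell of each library was left out.

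The filaggrin-type genes split, with Flg2 and Hrnr lower and Flg, Rptn and Tchh higher. Flg2 encodes filaggrin-2. It had 459 CPM (444 to 475) in the control and 3.30 CPM (1.99 to 5.16) in the IMQ library, a 139-fold (88.9 to 231) higher level in the control. Only 6 of 159 IMQ granular-like cells had a Flg2 UMI, against 97 of 208 control cells. Hrnr, which encodes hornerin, had 839 CPM (819 to 860) and 159 CPM (149 to 170), and was 5.28-fold (4.93 to 5.67) higher in the control.

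Flg had 761 CPM (742 to 781) in control and 3270 CPM (3224 to 3317) in IMQ granular-like cells. That made it 4.30-fold (4.17 to 4.43) higher in the IMQ library. The thinned share of cells with a Flg UMI was 25.5% in the control and 80.9% in the IMQ library, against 0.07% and 0.27% of fibroblast-like cells, and the unthinned shares were 48.1% and 92.5%. So the gene lay in more of the IMQ cells, and its highest cell held 6.26% of its IMQ UMIs against 19.8% in the control.

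Rptn encodes repetin, a matrix protein of the envelope. It stood at 9.67 CPM (7.59 to 12.1) in the control and 262 CPM (249 to 276) in the IMQ library, 27.1-fold (21.5 to 34.7) higher. Tchh encodes trichohyalin, best known from the inner root sheath of the hair. It had 2.09 CPM (1.20 to 3.40) against 15.8 CPM (12.7 to 19.4), and 7.57-fold (4.42 to 13.8) more in the IMQ library. Granular-like cells held only 3.21% of keratinocyte-like Tchh UMIs in the control and 5.29% in the IMQ library. Basal-like cells held 43.6% and 25.5%. The control granular-like level of Tchh was below the 8.67 CPM of control fibroblast-like cells. Crnn, which encodes cornulin, had 0 UMIs in control and 6 UMIs in IMQ granular-like cells and was not measured.

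**Figure D2:**
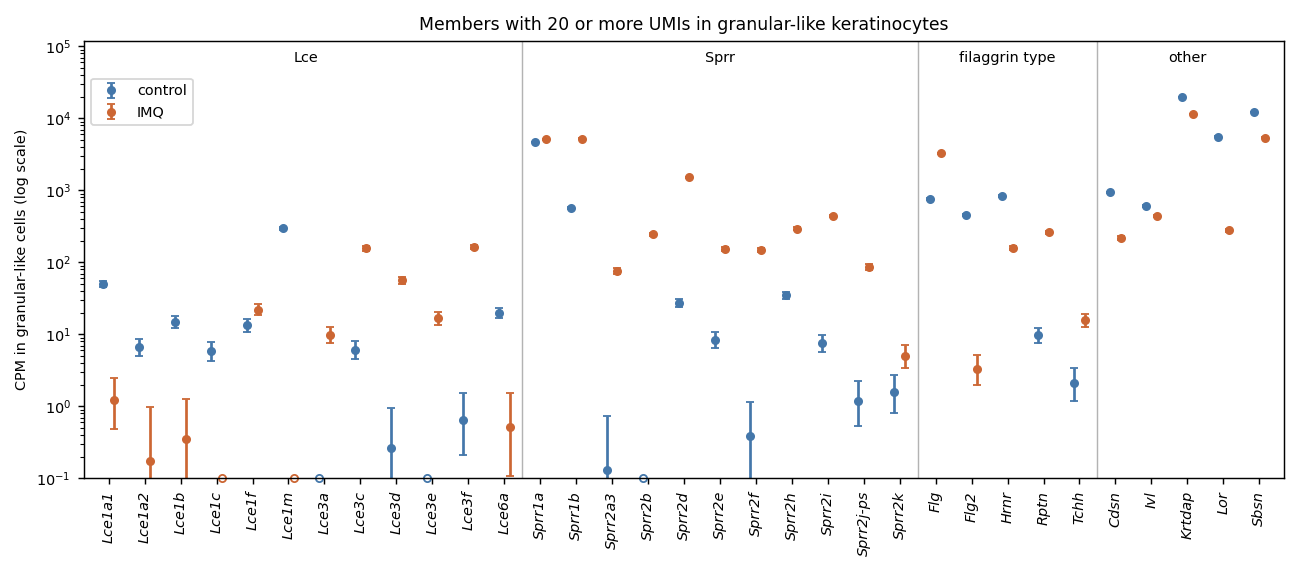
Level in CPM (log axis) of the 33 members measured in granular-like cells, in the control (blue) and IMQ (orange) library, grouped by subfamily; bars are exact 95% counting intervals and open circles on the axis are counts of 0. The Sprr2 and Lce3 genes sit higher and the Lce1 genes, except Lce1f, sit lower in the IMQ library.

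All 11 Sprr genes measured in granular-like cells had a ratio above equality, and 10 were called higher. The exception was Sprr1a, which had 4724 CPM (4675 to 4773) in the control and 5126 CPM (5067 to 5185) in the IMQ library, 1.09-fold (1.07 to 1.10) higher. Its direction turned under 7 of the alternatives, to a log2 ratio of -0.46 as a mean over cells and -1.01, called lower, in the Krt79-high clusters. Sprr1b, its close relative, had 567 CPM (551 to 585) and 5258 CPM (5199 to 5318). That was a 9.27-fold (8.98 to 9.57) higher level in the IMQ library. The thinned share of cells with a Sprr1b UMI was 26.0% in the control and 91.7% in the IMQ library, the unthinned shares were 48.1% and 94.3%, and the thinned shares in fibroblast-like cells were 0.12% and 0.80%.

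The Sprr2 genes, a cluster of closely related envelope crosslinkers, were low in control skin. Their sum was 81.7 CPM among control cells and 2965 CPM among IMQ cells, 36.3-fold (33.5 to 39.4) higher. Sprr2d had 27.3 CPM (23.7 to 31.3) and 1513 CPM (1481 to 1545), and was 55.4-fold (48.3 to 63.8) higher. Sprr2i had 7.58 CPM (5.76 to 9.80) and 441 CPM (424 to 458), a 58.2-fold (44.8 to 76.8) difference. Sprr2h differed least among those with over 50 control UMIs, with 34.9 CPM (30.8 to 39.3) and 292 CPM (279 to 307).

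Sprr2b was not detected among the control granular-like cells and had 245 CPM (232 to 258) in the IMQ library. Against a floor of 3 counts that is at least 624-fold higher. Sprr2a3 and Sprr2f rested on 1 and 3 control UMIs, and stood 591-fold (105 to 23386) and 380-fold (129 to 1845) higher. Sprr2e was 18.2-fold (14.2 to 23.8) higher, Sprr2j-ps 73.6-fold (38.5 to 162) and Sprr2k 3.22-fold (1.59 to 6.92). Reads of Sprr2a1, Sprr2a2 and Sprr2a3 cannot be told apart with certainty, since all 90-base windows in the last 400 bases of Sprr2a1 and Sprr2a2 transcripts, and 50.2% of those of Sprr2a3, occur in another of the 3 genes. The other Sprr genes shared no such window.

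The Lce genes, which encode small cysteine-rich proteins of the late envelope, separated by subgroup. Summed, the Lce genes stood at 419 CPM in the control and 432 CPM in the IMQ library, a ratio of 1.03 (0.978 to 1.09). Within that sum the 14 Lce1 genes were 15.02-fold (12.7 to 17.8) lower in the IMQ library, with 392 and 26.1 CPM. The 6 Lce3 genes were 57.4-fold (43.8 to 76.7) higher, with 7.06 and 405 CPM.

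Lce3f had 0.65 CPM (0.21 to 1.52) in the control and 163 CPM (152 to 174) in the IMQ library, 249-fold (106 to 769) higher. Lce3c had 6.14 CPM (4.51 to 8.17) and 156 CPM (146 to 167), 25.5-fold (19.0 to 34.9) higher. Lce3d, Lce3a and Lce3e were also called higher, on 2, 0 and 0 control UMIs and 325, 57 and 97 IMQ UMIs. The Lce3 genes share up to 36.7% of their 90-base windows with one another, so single Lce3 values are less certain than their sum.

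Lce1m had 298 CPM (286 to 310) among control cells and 0 UMIs among IMQ cells, which against the floor is at least 571-fold lower. Lce1a1 had 50.05 CPM (45.2 to 55.3) and 1.22 CPM (0.489 to 2.51). Lce1b, Lce1a2 and Lce1c were called lower as well, with 113, 51 and 45 control UMIs and 2, 1 and 0 IMQ UMIs. Lce6a, which belongs to neither subgroup, had 19.99 CPM (17.0 to 23.4) and 0.52 CPM (0.108 to 1.52). Lce1f went the other way, with 13.3 CPM (10.9 to 16.2) and 22.1 CPM (18.4 to 26.3), 1.66-fold (1.27 to 2.17) higher, and was not called. It was called higher under size factors, at a log2 ratio of 1.09, and without the control cell with most Lce UMIs, at 1.13. It was called lower in the Krt79-high clusters described below, at -1.12, but stood at -0.23 there, not called, without that cell.

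Much of the Lce1 level came from 1 control cell. That granular-like cell, with 46505 UMIs in all, held 2663 Lce UMIs, or 83.1% of the Lce UMIs of control granular-like cells. Of these, 2620 were from Lce1 genes and 2069 from Lce1m alone, 90.8% of all its control granular-like UMIs. The cell also held 6147 Lor and 459 Flg2 UMIs, the highest of any granular-like cell for these genes, but 8 Sprr UMIs. Its keratin counts were low, with 13 Krt10 UMIs and 0 of Krt14, Krt17 and Krt79, although it lay in the cluster described below as Krt79-high. The next control cell by Lce level had 140 Lce UMIs, with 4726 of Lor and 143 of Krt10.

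With the highest cell left out of each library, the Lce1 log2 ratio in granular-like cells went from -3.91 to -1.21, and the ratio of all Lce genes went from 0.04 to 2.06. Lce1m, Lce1a1 and Lce1b were still called lower, at -5.71, -3.23 and -2.39, while Lce1a2 and Lce1c had too few UMIs left to be measured. In cells rather than UMIs, 51 of 208 control and 30 of 159 IMQ granular-like cells had a Lce1 UMI. A Lce3 UMI was found in 13 control and 44 IMQ granular-like cells, and 8 and 12 cells had both.

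On the IMQ side the highest cell held a smaller share of the Lce UMIs. Other members went either way, with Lor at 14.4% in the control and 49.8% in the IMQ library, and Flg at 19.8% and 6.26%. The IMQ cell with most Lce UMIs held 792, or 31.9%, and 774 of these were Lce3. That cell had 3385 Sprr UMIs, 107 Flg UMIs and 0 Lor, Flg2 and Cdsn UMIs. Among single Lce3 genes, 1 cell held 73.8% of Lce3d and 80.7% of Lce3a, but 28.0% of Lce3f and 25.8% of Lce3c. Without its highest cell Lce3f stood at a log2 ratio of 8.23 and Lce3c at 5.28, and Lce3a fell below the minimum of 20 UMIs.

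For Sprr1a, Sprr1b, Krtdap and Sbsn the highest cell held little. It held 2.08% of Sprr1a, 6.08% of Sprr1b, 1.62% of Krtdap and 1.24% of Sbsn in control granular-like cells. The corresponding IMQ values were 3.64%, 3.90%, 2.44% and 3.62%. To reach 50% of the Sprr1b UMIs took 13 control and 32 IMQ cells, and for Lor it took 6 and 2 cells.

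**Figure D3:**
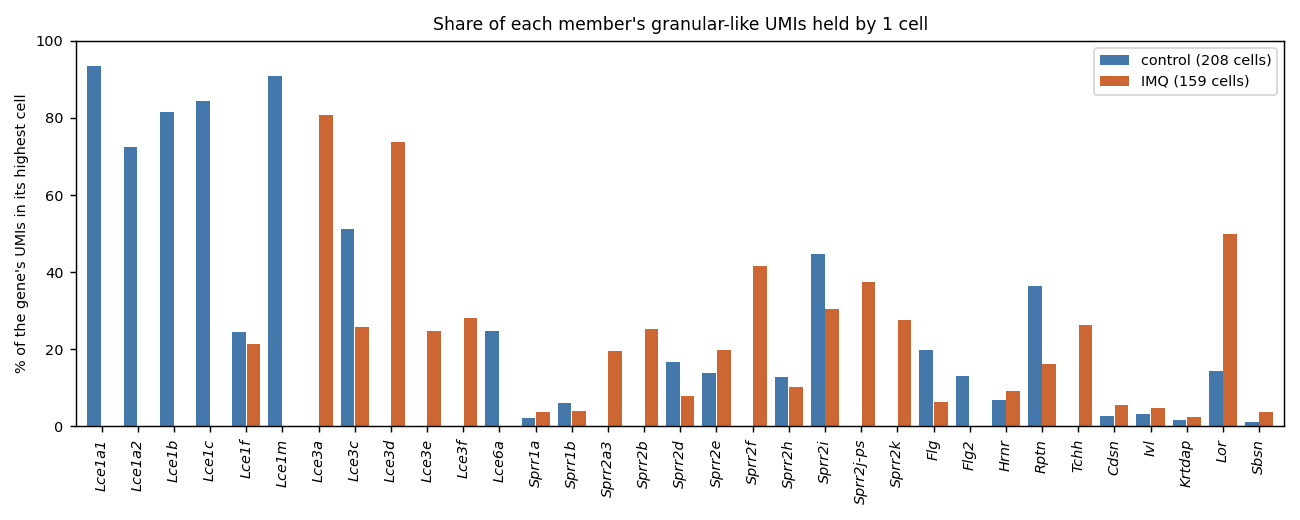
Percent of the granular-like UMIs of each measured member that lie in its highest cell, in the control (blue) and IMQ (orange) library; no bar is drawn where a library had under 20 UMIs. The control bars of Lce1a1, Lce1m, Lce1c, Lce1b and Lce1a2 lie between 72.5% and 93.5%, while those of Krtdap, Sbsn and Sprr1a lie below 2.1%.

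The 5 other members were all below equality in granular-like IMQ cells, and Lor, Cdsn and Sbsn were called. Cdsn encodes corneodesmosin, the adhesive protein of the corneocyte junctions. It had 937 CPM (916 to 959) in the control and 220 CPM (208 to 233) in the IMQ library, 4.26-fold (4.01 to 4.52) higher in the control. Sbsn had 12370 CPM (12291 to 12449) and 5415 CPM (5355 to 5476), 2.28-fold (2.26 to 2.31) higher in the control, and its log2 ratio of -1.19 became -0.83 under size factors, below the fold called. Krtdap had 19807 and 11435 CPM, and Ivl, an early crosslinking scaffold, had 608 CPM (590 to 625) and 443 CPM (426 to 460). Neither reached 2-fold, and both did at other clustering resolutions, where Ivl stood at -1.31 and -1.01 and Krtdap at -1.09 and -1.15 on the log2 scale.

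Along chromosome 3, neighbouring members of a subgroup were mostly called in the same direction in granular-like cells. From Lor, which was lower, the 9 measured Sprr2 genes at 205 to 352 kb and Sprr1b at 357 kb were all higher. From Lce6a at 540 kb to Lce1c at 599 kb all 5 members were lower. Of these, Lce1a1, Lce1b, Lce1a2 and Lce1c had 72.5% to 93.5% of their control UMIs in the highest cell. Without the highest cell of each library Lce1a2 and Lce1c were not measured. Every measured Lce3 gene, from 845 to 912 kb, was higher, and Lce1m at 938 kb was lower. Among the filaggrin-type genes, Flg2 at 1117 kb was lower, Flg at 1193 kb higher, Hrnr at 1239 kb lower, and Rptn at 1313 kb and Tchh at 1362 kb higher.

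**Figure D4:**
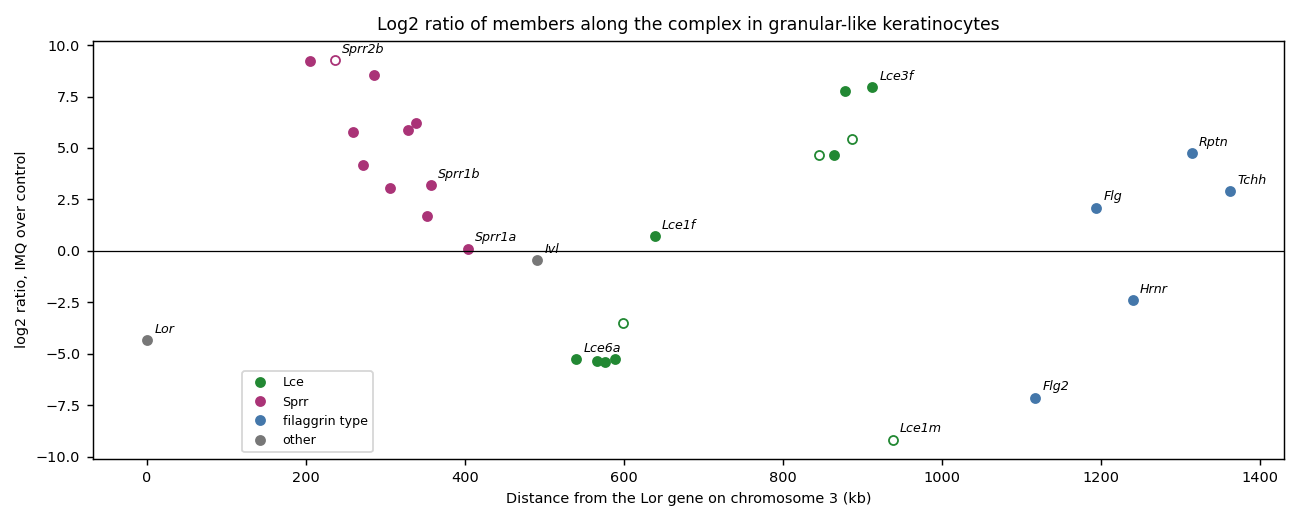
Log2 ratio of IMQ over control in granular-like cells for each measured member on chromosome 3 (vertical axis) against its distance from Lor in kb (horizontal axis), coloured by subfamily; open circles are bounds computed against 3 counts. The Sprr2 and Lce3 runs lie above 0, and the Lce1 run lies below it apart from Lce1f. Of the filaggrin type, Flg2 and Hrnr lie below 0 and Flg, Rptn and Tchh above it. Most control UMIs of each Lce1 gene called lower lay in its highest cell.

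The granular-like cells of each library formed a pair of clusters that differed in Krt79, a keratin of the upper hair follicle. The Krt79-high clusters held 58 control and 118 IMQ cells, with Krt79 at 7238 and 9519 CPM. The Krt79-low clusters held 150 and 41 cells, with Krt79 at 2.20 and 3.12 CPM. So the 2 kinds were mixed in different proportions, and the clusters were also compared kind by kind, a choice made after seeing the data. The median depth was 13290 and 32362 UMIs in the Krt79-high and 43489 and 47095 UMIs in the Krt79-low clusters. The 12 basal markers stood at 172 and 3926 CPM in the Krt79-high and 215 and 7479 CPM in the Krt79-low clusters. The 17 granular markers stood at 18573 and 12537 CPM in the former and 11963 and 11245 CPM in the latter. So the clusters compared were alike in Krt79 but not in basal transcripts.

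In the Krt79-low clusters 17 of 29 measured members were called higher, where 5.17% of genes were, and 7 lower, where 31.7% were. In the Krt79-high clusters 13 of 31 measured members were called higher, where 8.91% of genes were, and 12 lower, where 19% were. Of the 27 members measured in both kinds, 12 were called higher in both and 6 lower in both, and 0 in opposite directions. Those lower in both were Lor, Flg2, Hrnr, Cdsn, Lce1m and Lce6a. The matching shares over all genes were not computed, so these counts have no background to be read against.

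Lor was 22.3-fold (19.98 to 25.0) higher in the control in Krt79-low clusters, at 3731 and 167 CPM, and 62.4-fold (59.0 to 66.1) in Krt79-high clusters, at 20993 and 336 CPM. Flg was called only among Krt79-low cells, where the IMQ level of 3466 CPM was 5.93-fold (5.70 to 6.17) that of the control, 584 CPM. In Krt79-high cells it was 1.43-fold (1.36 to 1.5) higher, at 2222 and 3172 CPM. Whether these ratios differ was not tested. Tchh, with 16.9 and 12.02 CPM, had a log2 ratio of -0.49 in Krt79-high clusters and was not called there, against 6.32 in Krt79-low clusters, where the control had 2 UMIs.

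Sprr1b had 2 UMIs in the control Krt79-high cluster and 2.42 CPM (0.29 to 8.74), against 4432 CPM (4366 to 4500) in the IMQ one. In Krt79-low clusters it had 636 and 6899 CPM, 10.9-fold (10.5 to 11.2) higher in the IMQ library. Sprr1a was 2.01-fold (1.97 to 2.06) higher in the control in Krt79-high clusters and differed by a log2 ratio of -0.16 in Krt79-low clusters. In Krt79-low clusters the Lce sum of the IMQ library was 11.1-fold (9.79 to 12.6) that of the control, and it was 9.09-fold (8.53 to 9.68) higher in the control in Krt79-high clusters. The latter rested on the control cell with 2663 Lce UMIs. Without it the sum had 280 CPM (244 to 319) in the control and 384 CPM (364 to 404) in the IMQ library, 1.37-fold (1.19 to 1.59) higher in the latter. Lor, Flg2 and Lce1m were still called lower without that cell, at log2 ratios of -5.42 and -6.88 for Lor and Flg2.

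**Figure D5:**
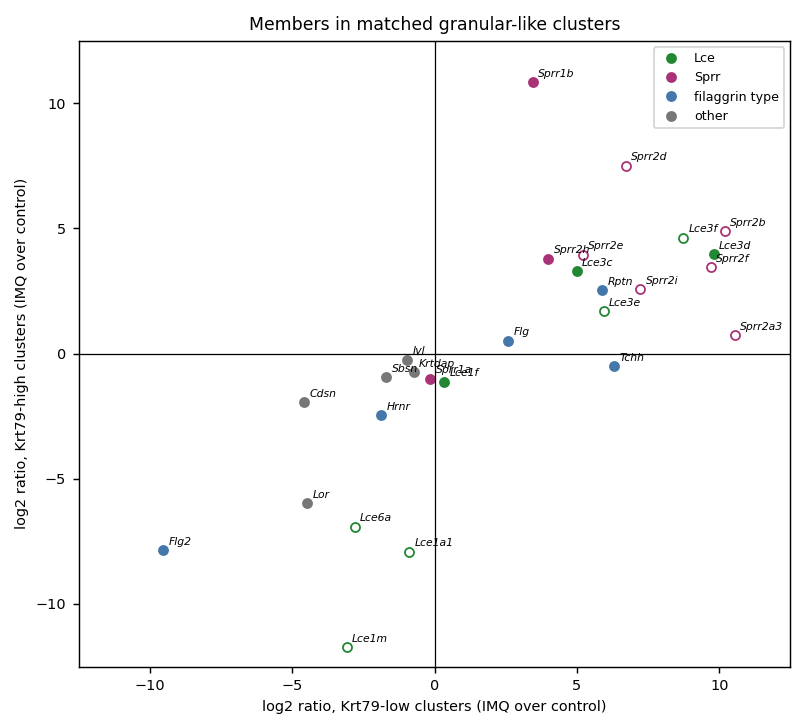
Log2 ratio of IMQ over control for the 27 members measured in both kinds of granular-like cluster, Krt79-low clusters on the horizontal and Krt79-high clusters on the vertical axis, coloured by subfamily; open circles have a bound computed against 3 counts on at least 1 axis. Sprr2, Lce3 and Rptn lie above 0 on both axes and Lor, Flg2, Hrnr, Cdsn, Lce1m and Lce6a below 0 on both.

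In spinous-like cells most Sprr genes were again higher in the IMQ library. The 12 spinous markers stood at 62523 CPM in the control and 22601 CPM in the IMQ library in this layer, and the 8 upper follicle markers at 423 and 7560 CPM. Their part in the member values was not tested. Here 15 of 22 measured members were called higher, where 13.3% of 10731 genes were, and 5 lower, where 12.1% were. Sprr1b had 302 CPM (286 to 319) in the control and 1232 CPM (1214 to 1251) in the IMQ library, 4.08-fold (3.85 to 4.32) higher. Sprr1a went the other way, with 1542 CPM (1504 to 1580) and 653 CPM (640 to 667). Sprr2d had 2.64 CPM (1.32 to 4.72) and 297 CPM (288 to 306), and was detected after thinning in 0.67% and 14.1% of spinous-like cells (3.33% and 31.7% unthinned, at median depths of 27450.5 and 31747 UMIs), against 0.02% and 0.34% of fibroblast-like cells.

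Flg was close to absent from control spinous-like cells at 2.40 CPM (1.15 to 4.41) and stood at 106 CPM (100 to 111) in IMQ ones, 44.0-fold (23.8 to 91.9) higher. Krtdap had 12436 and 5383 CPM and Sbsn 5384 and 996 CPM, 2.31-fold (2.28 to 2.34) and 5.41-fold (5.29 to 5.52) higher in the control. Cdsn and Lor were also called lower, on 37 and 30 control UMIs, and Lor was not called with free RNA subtracted, at a log2 ratio of -0.64 against -1.47. Lce3c, Lce3d and Lce3f were called higher, with 0 control UMIs and 27, 78 and 79 IMQ UMIs. These lay in 4, 3 and 8 of 407 cells, and 1 cell held 55.6%, 57.7% and 57.0% of them. Without the highest cell Lce3c was below the minimum of 20 UMIs. At a resolution of 2 the number called higher was 7, and with at least 500 genes per cell it was 9. The shares of all genes called under these settings are not given.

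In basal-like cells, where these genes are low, 8 of 12 measured members were called higher, where 9.79% of 11616 genes were, and 1 lower, where 14.3% were. Krtdap had 313 CPM (302 to 324) in the control and 1658 CPM (1636 to 1680) in the IMQ library, 5.30-fold (5.11 to 5.51) higher. Its thinned share of cells with a UMI was 22.7% and 88.9%, against 8.25% and 3.98% of fibroblast-like cells, with unthinned shares of 58.3% and 97.3% at median depths of 16109.5 and 42877 UMIs. Sprr1b had 1.85 CPM (1.10 to 2.92) and 37.0 CPM (33.8 to 40.5), and the summed Sprr2 genes had 3.80 and 91.3 CPM.

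Lor was the member called lower in basal-like cells, at 9.34 CPM (7.52 to 11.5) and 2.79 CPM (1.96 to 3.84). Fibroblast-like cells had 5.52 CPM of Lor in the control and 0.54 CPM in the IMQ library. With free RNA subtracted, the basal-like log2 ratio was -1.18 and still called. The subtraction took 0.90% and 0.69% of library levels of 381 and 18.9 CPM, which is less than the fibroblast-like levels. A background as high as the fibroblast-like level was not tested. Ivl was called higher, at 1.75 CPM (1.02 to 2.79) and 5.04 CPM (3.91 to 6.41).

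Upper follicle-like cells had 9 measured members, of which 7 were called lower, where 11.2% of 9616 genes were, and 1 higher, where 10.6% were. Sprr1a had 3266 CPM (3208 to 3326) in the control and 139 CPM (126 to 152) in the IMQ library, and Sbsn 3823 and 379 CPM. Tchh was the member called higher, at 9.32 CPM (6.45 to 13.02) and 64.8 CPM (56.3 to 74.1). The marker lists also differed between these cells. Upper follicle markers had 21221 CPM in the control and 11625 CPM in the IMQ library, spinous markers 19733 and 5437 CPM, granular markers 2945 and 620 CPM, and basal markers 1013 and 9754 CPM, and their part in the member values was not tested. The member calls depend on which IMQ cluster bears the name. With at least 500 genes per cell, an IMQ cluster of 69 cells with a median of 5432 UMIs bore the name and the counts were 12 higher and 0 lower. The shares of all genes for that cluster are not given.

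Over spinous-like and granular-like cells together, the 3 subfamilies gave summed log2 ratios of -0.98 for Lce, 0.45 for Sprr and -0.18 for the filaggrin type. The Sprr sum had 4133 CPM in the control and 1.37-fold (1.35 to 1.38) more, 5643 CPM, under IMQ, and it hid a split between Sprr1 at 1.08-fold (1.06 to 1.09) and Sprr2 at 22.3-fold (20.6 to 24.1). The filaggrin-type sum was 1.13-fold (1.11 to 1.16) higher in the control, and the Lce sum 1.97-fold (1.87 to 2.07). The Lce value turned to 1.58 without the control cell with most Lce UMIs, and to 2.22 without the control Krt79-high cluster. The filaggrin-type value turned to 0.57 at a clustering resolution of 0.5 and to 0.76 with layers drawn from a keratin score, and the Sprr value fell to -0.03 as a mean over cells. The 358 control and 566 IMQ cells held different proportions of spinous-like and granular-like cells, which these sums do not adjust for.

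The other genes of the pathway in granular-like cells are given from lists chosen with earlier results of these data known. Their counts stand beside the 6.81% of all genes called higher and 19.4% called lower in this layer. Some listed genes were also layer markers, among them Casp14, Tgm3, Aloxe3 and Krt77. The counts of lists that hold such genes are therefore not independent of how the layer was named. Of 16 measured non-member genes of the complex locus, 5 were called higher and 4 lower. S100a8 and S100a9, the calprotectin subunits, had 3.66 and 42.2 CPM in the control and 6902 and 8765 CPM in the IMQ library. Of the 7 neutrophil markers, which include both, all 7 were detected in granular-like IMQ cells, but in the Krt79-low IMQ cluster Csf3r, Mmp9, Retnlg and Ly6g had 0 UMIs. Kprp, a keratinocyte proline-rich protein, had 89.4 and 2.43 CPM, and Prr9 0.78 and 42.9 CPM.

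Of 13 crosslinking and scaffold genes 1 was called higher and 2 lower in granular-like cells, near the shares of all genes. The transglutaminase Tgm3 had 13.7 and 39.8 CPM, and periplakin (Ppl) 591 and 247 CPM. Of 14 measured protease and inhibitor genes 8 were called higher and 2 lower, among them Casp14, the caspase of filaggrin processing, at 150 and 879 CPM, and Klk6 at 147 and 1362 CPM. Of 13 barrier lipid genes 2 were called higher and 1 lower, and the lipoxygenase Aloxe3 had 81.2 and 22.8 CPM.

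Of 21 transcription factors of terminal differentiation 0 were called higher and 4 lower in granular-like cells, at a median log2 ratio of -0.31 against -0.36 for all genes. That is near the share and median of all genes. The AP-1 member Fosl1 had 146 CPM in the control and 31.6 CPM in the IMQ library, and Gata3 184 and 53.9 CPM. Of the 11 layer and stress keratins 6 were called higher and 3 lower. Krt6a and Krt6b, keratins of stressed epidermis, stood at 51.6 and 37.5 CPM in the control and 3313 and 3383 CPM in the IMQ library, and Krt77 at 17451 and 142 CPM.

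Tchh and Sbsn were also found outside keratinocyte-like cells. Keratinocyte-like cells held 39.7% of the Tchh UMIs of all kept control cells and 88.5% in the IMQ library. Fibroblast-like cells had 8.67 CPM of Tchh in the control and 1.34 CPM in the IMQ library. Keratinocyte-like cells held 94.5% of Sbsn UMIs in both libraries, and the fibroblast-like level was 133 and 64.3 CPM, above the 45.8 and 23.2 CPM of Krtdap there. In the fibroblast-like cluster with the highest level, of 1712 control and 231 IMQ cells, Sbsn had 493 and 505 CPM. Krtdap was also above its fibroblast-like level in that cluster, at 108 and 147 CPM. Of the 90-base windows at the end of Sbsn transcripts, 24.9% also occur, in the same direction, in transcripts of the overlapping gene Tmem147os. Reads from the pair cannot be told apart there.

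In all, 11 symbols had fewer than 20 UMIs over both libraries in keratinocyte-like cells. They were Crnn, Lce1d, Lce1e, Lce1g, Lce1h, Lce1i, Lce1j, Lce1k, Lce1l, Sprr3 and Sprr4. Their counts ran from 0 to 17 UMIs in the control and from 0 to 12 UMIs in the IMQ library, and Sprr3, which encodes a small proline-rich protein of internal epithelia, had 0 UMIs in both. A further 3 symbols, Lce3b, Sprr2a1 and Sprr2a2, were measured in keratinocyte-like cells as a whole but not in granular-like cells.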

How the data were processed

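The authors deposited 1 matrix per library that holds unnormalized UMI counts for each gene in each barcode. The authors' matrices were written by Cell Ranger 5.0.0 per the file headers, whereas the submitters' processing notes name Cell Ranger 3.0.2, Seurat 2.0 and the build mm10. The aligner settings and annotation are not given in the sources used here.

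Barcodes with at least 200 genes and at most 10% mitochondrial UMIs passed, 10297 control and 8499 IMQ. Scrublet then marked 422 (4.10%) and 110 (1.29%) as doublets, which were removed. The libraries held at least 500 UMIs per barcode, and kept cells had a median of 9468 and 12543 UMIs. Cells were clustered in scanpy 1.11.5 (Python 3.11.15, 2000 variable genes, 30 components, 15 neighbours, Leiden resolution 1). Keratinocyte-like cells were clustered again without the members, within each library, because clusters of both libraries together split by library; this was decided after seeing the data. A layer name needed at least 3 detected markers.

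UMIs were summed per layer and library and divided by the layer's total (CPM). Intervals are exact Poisson for levels and conditional binomial for ratios (scipy 1.17.1), at 95%, and treat UMIs as independent. A gene was measured with 20 or more UMIs over both libraries. A zero was replaced by 3 counts of its own library for a bound. For shares of cells with a UMI, cells were thinned to 2000 UMIs. The ratio code was tested on simulated data. All members were accounted for, and up to 4 genes per pathway list were eligible for naming. The members and lists were chosen with earlier results of these data known. Alternatives covered scaling, cell weighting, filters, doublets, clustering resolution, a keratin score, free RNA and the UMI minimum.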

Additional observations from a re-analysis of the deposited data

Results flagged for a closer look

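Among basal-like, spinous-like, granular-like and upper follicle-like cells, 3 members were called, by the 2-fold rule, in opposite directions in different layers. The share of all genes called in opposite directions over these layers is not given, so the count has no background to be read against. Follicle stem/outer root sheath-like and sebaceous-like cells were left out of this comparison. Sprr1b, an envelope crosslinker, had a log2 ratio of 4.33 in basal-like, 2.03 in spinous-like and 3.21 in granular-like cells, and -1.64 in upper follicle-like cells. Krtdap had 2.41 in basal-like cells, -1.21 in spinous-like cells and -1.72 in upper follicle-like cells. Ivl had 1.53 in basal-like cells, on 17 control and 67 IMQ UMIs, and -4.45 in upper follicle-like cells. Each condition had 1 library, and the difference between layers was not tested. The upper follicle-like values turned for all 3 genes with at least 500 genes per cell.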

How the results depend on the processing

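No paired analysis was possible because each group has 1 library. Of 961 values of named members under an alternative, 934 kept their direction and 877 kept direction and call. Part of the 961 could not change direction. A changed UMI minimum leaves every ratio as it was and can alter only the call. Leaving out the control cell with most Lce UMIs, or the Krt79-high control cluster, alters only granular-like ratios among the 4 layers. The count of 934 is therefore not a measure of how stable the directions were. The summed log2 ratios over spinous-like and granular-like cells, -0.98 for Lce, 0.45 for Sprr and -0.18 for the filaggrin type, changed as follows, and the cause was not tested. Counts of members called are given without the shares of all genes under each setting, so they show only how the counts moved.

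As a mean of per-cell CPM, Sprr was -0.031 and the filaggrin type -0.088. Without the highest cell of each gene, Lce was 1.09, Sprr 0.43 and the filaggrin type -0.14. With doublets kept, Sprr was 0.47, 3 members were lower in spinous-like cells and 2 higher in upper follicle-like cells. With at least 500 genes per cell, Lce was -0.90, Sprr 0.49 and the filaggrin type -0.10, 9 members were higher in spinous-like cells, and 12 were higher and 0 lower in upper follicle-like cells. At resolution 0.5, where no IMQ cluster was named spinous-like or upper follicle-like, Lce was -0.21, Sprr 1.11 and the filaggrin type 0.57. At resolution 2, Lce was -1.29, Sprr 0.65 and the filaggrin type -0.070, and 7 members were higher in spinous-like cells. With layers from a keratin score, Lce was -0.21, Sprr 1.01 and the filaggrin type 0.76, with 17 members higher and 2 lower in the basal range and 11 lower in the suprabasal range. Around its cut of 0.1 lay 106 control and 150 IMQ cells.

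With a minimum of 1 UMI, 2 members were lower in basal-like and 2 higher in upper follicle-like cells, and with 100 UMIs 3 were lower in spinous-like cells. Alternatives added after seeing the data follow. Krt79-low clusters alone gave 7 members lower. Without the control cell with most Lce UMIs, Lce was 1.58 and the filaggrin type -0.096. Without the Krt79-high control cluster, Lce was 2.22, Sprr 0.67 and the filaggrin type 0.054, with 7 granular-like members lower.

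The sign turned for 27 values of single members, 12 of them called as reported and 15 not. The 12 are these. Cdsn in spinous-like cells was 0.14 with doublets kept. With at least 500 genes, upper follicle-like Ivl was 1.59, Krtdap 0.54, Lor 2.92, Sprr1a 0.49, Sprr1b 5.23 and Tchh -0.39. At resolution 2, spinous-like Sprr2b was -0.056 and Sprr2i -0.79. In Krt79-high clusters Sprr2j-ps was -0.21 and Tchh -0.49, and in Krt79-low clusters Lce1c was 0.83. Of the 15, granular-like Lce1f and Sprr1a were called lower in Krt79-high clusters, at -1.12 and -1.01, and upper follicle-like Sprr2h was called higher with at least 500 genes, at 6.06; the others stayed uncalled.

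The limits are those of 1 library per condition, rebuilt layer names and low counts. Spread between animals is unknown, and treatment cannot be told apart from library. Members with few UMIs, most Lce genes among them, rest on few cells.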
